A study of Mus musculus with 2 samples.

Results

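The genes described here make serine, glycine, proline and asparagine, or take up cystine and large neutral amino acids. They comprise 10 genes chosen by symbol: *Phgdh*, *Psat1* and *Psph* (serine synthesis), *Shmt2* and *Mthfd2* (glycine and mitochondrial one-carbon metabolism), *Aldh18a1* and *Pycr1* (proline synthesis), *Asns* (asparagine synthesis), and *Slc7a5* and *Slc7a11* (uptake). All 10 symbols were found among the 24421 rows of the count table, and all 10 belonged to the 14730 genes with at least 10 counts in the libraries together. RNA-Seq was performed on 1 library of mouse primary chondrocytes, cells released by collagenase from the rib cartilage of newborn mice and cultured for no more than 2 passages, and 1 library of primary dermal fibroblasts, cells released by collagenase from dorsal skin of newborn mice. The sources used here give no genotype, strain, treatment or number of animals for these libraries. The comparison asks which genes are expressed at a higher level in chondrocytes than in fibroblasts, and with 1 library per cell type no difference has a replicate check and no p-value was computed.

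Serine is made from an intermediate of glycolysis in a short chain of enzymes, and glycine is then split off from serine with transfer of a carbon unit to folate. Proline is made from glutamate in mitochondria. Cartilage and dermis both consist largely of collagens, in which glycine and proline are the most frequent residues, so that cells that secrete collagen have a high need for both. When amino acids run short or the endoplasmic reticulum is under load, the transcription factor ATF4 is translated and activates genes of these routes through sites known as C/EBP-ATF response elements.

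Totals were 18788599 counts in chondrocytes and 17563724 in dermal fibroblasts. *Col2a1* alone took 7.70% of the chondrocyte counts, so counts were divided by library sizes adjusted with TMM (trimmed mean of M values), and levels are given as counts per 1000000 of that size (scaled CPM). The labels fit the markers: each of 10 cartilage genes was over 2-fold higher in chondrocytes (summed level 106191 scaled CPM against 24.4, *Col2a1* and *Matn1* at 0 in dermal fibroblasts), and 9 of 10 dermal genes differed over 2-fold the other way (6517 against 49610 scaled CPM, none at 0), *Lum* being the exception. Markers of other cells were present as well. Summed levels in chondrocytes and dermal fibroblasts were 1850 and 1304 scaled CPM for 8 skeletal muscle genes and 15.9 and 264 for 7 keratinocyte genes. They were 110 and 177 for 7 macrophage genes, and 14.1 and 42.4 for 6 endothelial genes. Of the 8 muscle genes, 4 passed 2-fold upward in chondrocytes, beside 12.0% of all genes tested. None of these marker genes was at 0. Their part in the results below was not tested. In bulk RNA, fewer cells of a type and less RNA per cell cannot be told apart.

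All 10 genes had a higher level in chondrocytes. Together they summed to 2446 scaled CPM in chondrocytes and 1572 in dermal fibroblasts, 1.56 times as much (95% counting interval 1.53 to 1.58). The folds ranged from 1.21 for *Psat1* to 3.24 for *Pycr1*, with a median log2 fold of 0.61, against a median of 0.00 over all genes tested. *Pycr1* and *Shmt2*, 2 of the 10, were over 2-fold higher in chondrocytes, as were 12.0% of all genes tested. None of the 10 was over 2-fold higher in dermal fibroblasts, as were 16.2% of all genes tested. Among the 7205 genes whose mean level lay between those of *Slc7a11* and *Slc7a5*, these shares were 6.84% and 10.6%. A count of 2 in 10 is near the background of all genes tested. The whole counting interval lay above equality for 10 of the 10, against 34.5% of all genes tested and 40.9% of the 7205 genes whose mean level lay between those of *Slc7a11* and *Slc7a5*. The 10 genes were chosen with earlier results of these data known. The contrasts with all genes therefore describe the list and test nothing. Intervals describe the error of counting reads, which were not tagged with molecular identifiers and so may repeat a molecule. They leave out the variation between cultures or animals.

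**Figure D1:**
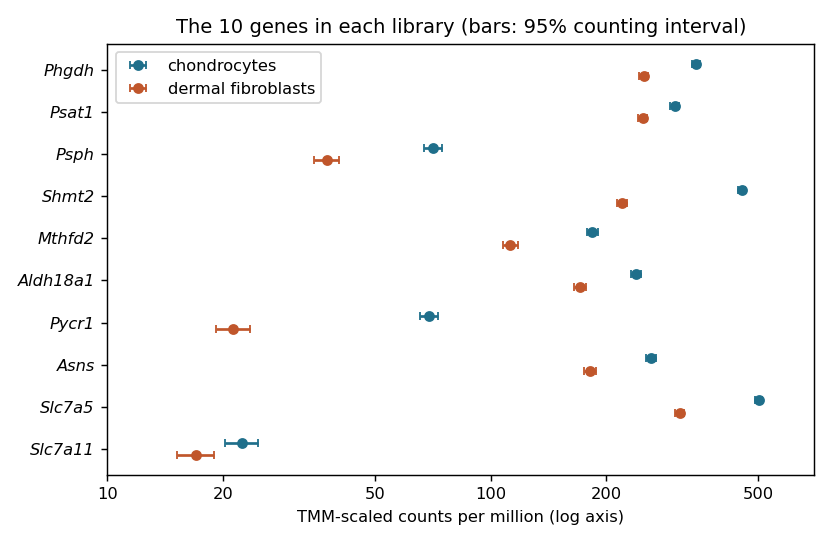
Scaled CPM (log axis) of each of the 10 genes in the chondrocyte library and the dermal fibroblast library, with 95% Poisson counting intervals as bars. The chondrocyte point lies to the right for each gene, from 22.4 against 17.0 for *Slc7a11* to 501 against 311 for *Slc7a5*.

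**Figure D2:**
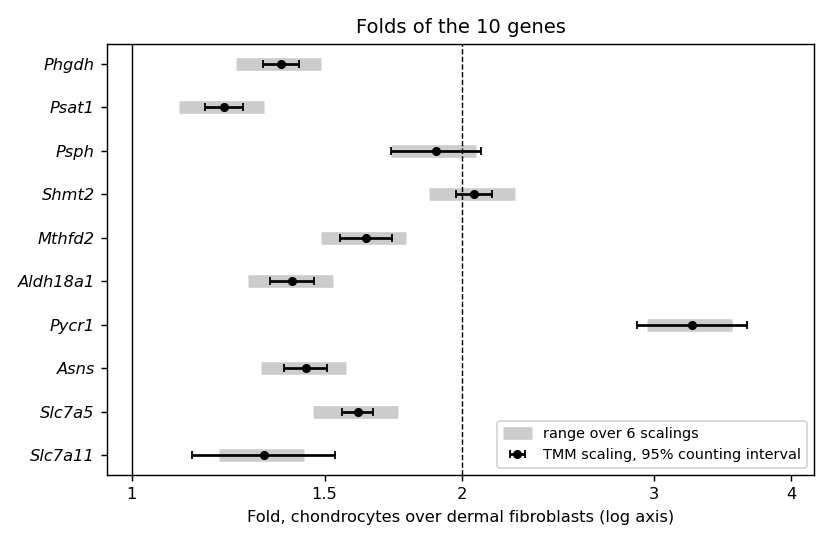
Fold of chondrocytes over dermal fibroblasts (log axis) for each gene, with the 95% counting interval (black) and the range over 6 ways of scaling the libraries (gray band); lines mark equality and 2-fold. Each band and interval lies right of equality, and *Pycr1* alone lies wholly beyond 2-fold.

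*Phgdh*, which encodes the dehydrogenase that commits carbon from glycolysis to serine (GRCm38, chromosome 3, 98313171 to 98339969), drew 6149 chondrocyte reads and 4614 dermal fibroblast reads, or 343 and 251 scaled CPM. The level was 1.37-fold higher in chondrocytes (interval 1.32 to 1.42). *Psat1*, the transaminase of the next step (chromosome 19, 15905123 to 15925059), had 5422 and 4589 counts and was 1.21-fold higher (interval 1.17 to 1.26), the smallest fold of the 10. *Psph*, the phosphatase that releases serine (chromosome 5, 129765558 to 129787443), was the least abundant of the chain with 1268 and 687 counts. It was 1.90-fold higher (interval 1.73 to 2.08). The steps of the chain thus differed unequally between the libraries. There were 4.28 *Psat1* reads per *Psph* read in chondrocytes and 6.68 in dermal fibroblasts, a ratio of 0.640 (interval 0.579 to 0.708) that does not depend on the scaling. Reads of *Phgdh* and *Psat1* stood at 1.13 to 1 in chondrocytes and 1.01 to 1 in dermal fibroblasts (ratio 1.13, interval 1.07 to 1.19). The span of *Psph* shares 88 bp with that of *Cct6a* on the opposite strand (4425 and 2885 counts), and the sources used here give no strand setting for the counting. How reads shared by *Phgdh* and its pseudogene *Phgdh-ps1* were assigned is also not stated.

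*Shmt2*, the mitochondrial enzyme that splits serine into glycine and a carbon unit (chromosome 10, 127517123 to 127522444), drew 8097 chondrocyte reads and 4049 dermal fibroblast reads. Its level was 452 scaled CPM against 220, a 2.05-fold difference whose interval, 1.98 to 2.13, reaches just below 2-fold. With total counts in place of TMM the fold was 1.87. Its span shares 32 bp with that of *Ndufa4l2* (609 and 249 counts). The cytosolic counterpart *Shmt1* had 330 and 237 counts, so that *Shmt2* reads outnumbered *Shmt1* reads 24.5 to 1 in chondrocytes and 17.1 to 1 in dermal fibroblasts (ratio 1.44, interval 1.21 to 1.70). *Mthfd2*, the mitochondrial dehydrogenase and cyclohydrolase that oxidizes the folate-bound unit (chromosome 6, 83305704 to 83326011), had 3304 and 2074 counts and was 1.64-fold higher (interval 1.55 to 1.73). Relative to its paralog *Mthfd2l* (133 and 145 counts) it was 1.74-fold higher in chondrocytes (interval 1.36 to 2.21). Relative to the cytosolic *Mthfd1* (1404 and 971 counts) the ratio was 1.10, with an interval from 0.998 to 1.22 that includes equality.

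*Aldh18a1*, the synthase that turns glutamate into the precursor of proline (chromosome 19, 40550257 to 40588463), drew 4292 chondrocyte reads and 3145 dermal fibroblast reads, or 239 and 171 scaled CPM. The fold was 1.40 (interval 1.34 to 1.47). Its span shares 2837 bp with that of the pseudogene *Gm15801*, which matched no row of the count table. *Pycr1*, the mitochondrial reductase that completes proline (chromosome 11, 120638998 to 120643748), had 1238 counts against 392, or 69.1 and 21.3 scaled CPM. Its fold of 3.24 (interval 2.89 to 3.64) was the largest of the 10 and exceeded the folds of 93.8% of all genes tested. *Aldh18a1* reads outnumbered *Pycr1* reads 8.02 to 1 in dermal fibroblasts and 3.47 to 1 in chondrocytes (ratio 0.432, interval 0.382 to 0.488). The genes that break proline down again had fewer reads than *Aldh18a1* in each library, though *Aldh4a1* had more than *Pycr1* in dermal fibroblasts. *Aldh4a1* was lower in chondrocytes at 308 counts against 543 (fold 0.583, interval 0.505 to 0.671), and *Prodh* had 38 and 53 counts (fold 0.736, interval 0.472 to 1.14, which includes equality). Set against these, *Aldh18a1* was 2.41-fold higher relative to *Aldh4a1* in chondrocytes (interval 2.08 to 2.79) and *Pycr1* was 4.40-fold higher relative to *Prodh* (interval 2.86 to 6.78).

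*Asns*, which encodes the synthetase that makes asparagine from aspartate and glutamine (chromosome 6, 7675165 to 7693209), was 1.44-fold higher at 4693 chondrocyte counts against 3345 (interval 1.38 to 1.51). *Slc7a5* encodes LAT1, the light chain of the exchanger that brings in large neutral amino acids (chromosome 8, 121881146 to 121907686). It had the most reads of the 10 in both libraries, 8974 and 5734, and was 1.61-fold higher (interval 1.55 to 1.66). *Slc7a11* encodes xCT, which takes up cystine in exchange for glutamate (chromosome 3, 50364936 to 50499087), and had the fewest, 402 and 313. Its fold was 1.32 (interval 1.14 to 1.53). Both light chains pair with the heavy chain encoded by *Slc3a2*, which had 7710 and 5702 counts (1.39-fold higher, interval 1.34 to 1.44). *Slc7a5* reads were 1.16 per *Slc3a2* read in chondrocytes and 1.01 in dermal fibroblasts (ratio 1.16, interval 1.10 to 1.21). *Slc7a11* reads were 0.0521 and 0.0549 per *Slc3a2* read, and the interval of that ratio (0.816 to 1.11) includes equality. LAT2, encoded by *Slc7a8*, was lower in chondrocytes, with 134 counts against 260 (fold 0.529, interval 0.426 to 0.655, and 0.482 with total counts), and *Slc7a5* relative to *Slc7a8* was 3.04-fold higher there (interval 2.46 to 3.75).

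**Figure D3:**
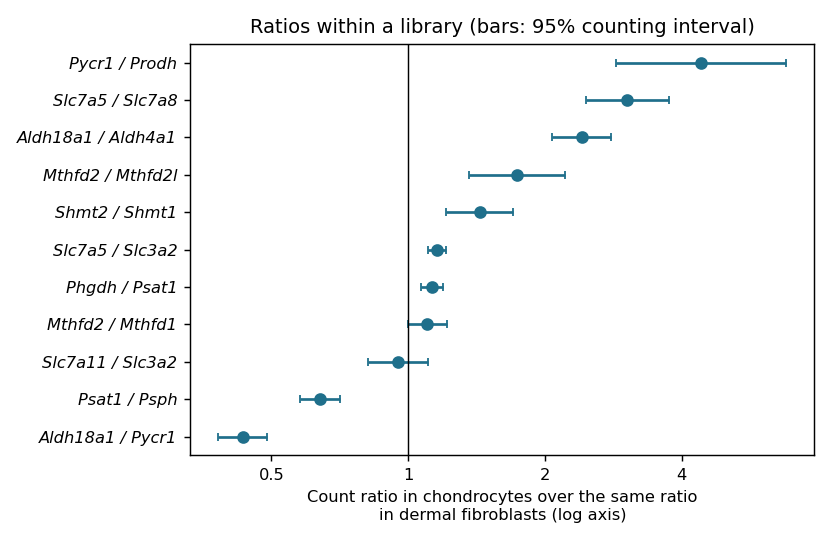
Ratio of the read counts of gene pairs in chondrocytes divided by the same ratio in dermal fibroblasts (log axis), with 95% counting intervals. Of the 11 pairs, *Pycr1* over *Prodh* lies highest at 4.40 and *Aldh18a1* over *Pycr1* lowest at 0.432; the intervals of *Mthfd2* over *Mthfd1* and of *Slc7a11* over *Slc3a2* include equality.

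The folds differed among the 10 genes. Of the 45 pairs, 36 had a ratio of folds whose counting interval excluded equality, which holds under any scaling. The 9 pairs that did not were among *Phgdh*, *Aldh18a1*, *Asns* and *Slc7a11*, and those of *Slc7a11* with *Psat1*, *Shmt2* with *Psph*, and *Mthfd2* with *Slc7a5*. Per kilobase of annotated exons, *Shmt2* had the highest level in chondrocytes at 198 scaled CPM per kb. *Slc7a5* (142) and *Phgdh* (138) followed with overlapping intervals, then *Asns* (95.7), *Psat1* (71.1) and *Mthfd2* (67.7), of which the last pair overlapped. The lower levels per kb were those of *Aldh18a1* (60.2), *Psph* (38.9), *Pycr1* (17.6) and *Slc7a11* (1.99). In dermal fibroblasts *Phgdh* (101 scaled CPM per kb) and *Shmt2* (96.5) came first with overlapping intervals, and *Aldh18a1* (43.0) stood level with *Mthfd2* (41.4) in the same sense. The order was otherwise alike, and *Psph* (20.5), *Pycr1* (5.41) and *Slc7a11* (1.51) were again lowest. The length used was the union of all annotated exons, which can exceed that of the transcript expressed. The order per kb therefore depends on the annotation, which the counting intervals leave out.

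**Figure D4:**
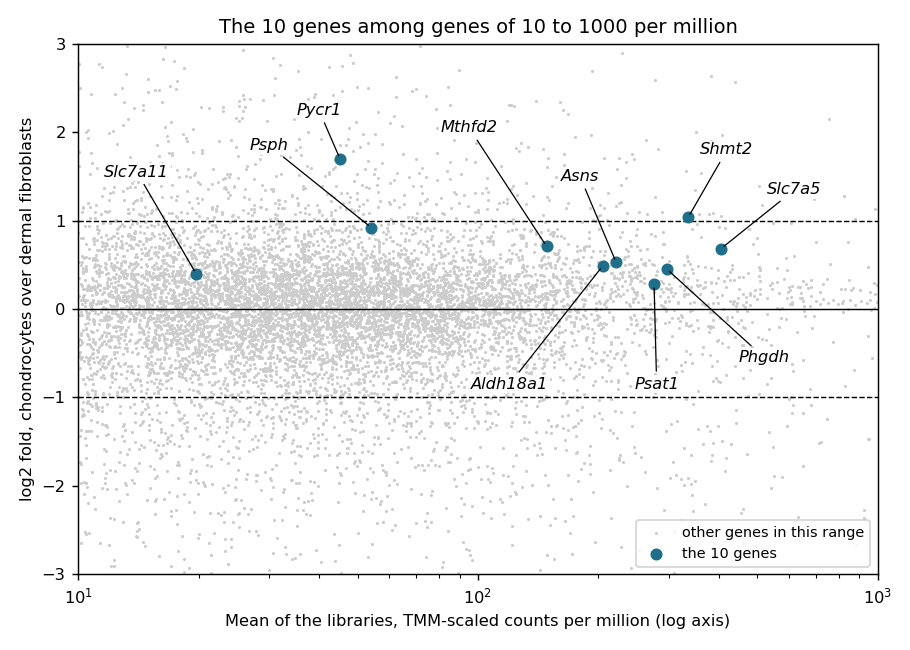
Log2 fold of chondrocytes over dermal fibroblasts against the mean level of both libraries in scaled CPM (log axis) for genes with a mean from 10 to 1000; points beyond a log2 fold of 3 in either direction are not drawn, and dashed lines mark 2-fold. The 10 genes lie above 0, from 0.28 for *Psat1* to 1.70 for *Pycr1*.

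Promoter sequences, from 250 bases before to 50 bases after each annotated start (RefSeq, GRCm38.p6), were found for 9 of the 10 genes, all but *Slc7a5*, with a pair of windows for *Psat1*. The starts used for *Slc7a11*, *Mthfd2* and *Psph* lie inside the gene span given above, and not at its end. The pair for *Psat1* holds a start of each kind. The letters TGATGNAA, the core of the C/EBP-ATF response element read on both strands, occurred in the windows of 3 of these 9 genes (*Asns*, *Pycr1* and *Slc7a11*) and in 3.97% of the 32851 promoter windows of the table. The stretches that hold them are shown 5′ to 3′ along the gene, with the matches in capitals, to show the letters in their surroundings. They lie on the minus strand at chr6:7693195-7693262 (*Asns*), chr11:120643814-120643881 (*Pycr1*) and chr3:50443623-50443709 (*Slc7a11*).

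Asns: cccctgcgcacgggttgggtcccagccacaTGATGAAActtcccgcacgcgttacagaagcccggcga
Pycr1: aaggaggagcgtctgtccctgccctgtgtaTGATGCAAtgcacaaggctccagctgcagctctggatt
Slc7a11: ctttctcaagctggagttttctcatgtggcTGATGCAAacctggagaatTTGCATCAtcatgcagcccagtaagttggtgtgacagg

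The match began 23 bases before the annotated start in *Asns* and 103 bases before it in *Pycr1*. *Slc7a11* had 2 matches in opposite orientation, beginning 66 and 47 bases before the annotated start used, which lies inside the gene span. The folds of the 3 genes, 1.44, 3.24 and 1.32, spanned nearly the whole range of the 10. The other 6 genes with a window, *Phgdh*, *Psat1*, *Psph*, *Shmt2*, *Mthfd2* and *Aldh18a1*, did not hold these letters there. TGANNNNGC, the core of the antioxidant response element bound by NRF2, occurred in 7 of the 9 genes and in 41.3% of all windows, and 1 of its matches in *Slc7a11* overlaps a TGATGNAA match. CCAAT occurred in 6 of the 9 genes and in 37.4% of all windows.

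*Atf4* itself was 1.38-fold higher in chondrocytes (11671 against 8665 counts, interval 1.35 to 1.42). Of 26 genes of the amino acid response, 6 had a fold over 2 and 1 was over 2-fold lower in chondrocytes. The shares over all genes tested were 12.0% and 16.2%. The median log2 fold of the list was 0.32. Its counting intervals lay wholly above equality for 17 genes and wholly below it for 7, beside 5083 and 5220 of all 14730 genes tested. *Stc2*, a secreted glycoprotein, was 5.54-fold higher (2082 against 386 counts), *Cth*, which makes cysteine from cystathionine, was 3.94-fold higher (1476 against 385), and the hormone genes *Gdf15* and *Fgf21* were 3.07-fold and 2.87-fold higher. In the other direction, *Ddit4*, an inhibitor of mTORC1, had a fold of 0.333 (694 against 2142 counts), and *Atf5*, which was among the most abundant of the list, had a fold of 0.598 (5611 against 9639). *Hspa5*, the chaperone of the endoplasmic reticulum, was 1.38-fold higher. The 20 cytosolic aminoacyl-tRNA synthetases, many of which share ATF4 as an activator, all lay within 2-fold except that *Dars* reached 2.03-fold with *Actb* as the scale. Of all genes tested, most lay within 2-fold too, with 12.0% over 2-fold higher in chondrocytes and 16.2% over 2-fold lower. The synthetases had a median log2 fold of 0.31 and values from -0.35 for *Aars* to 0.90 for *Dars*. *Eprs*, the synthetase for glutamate and proline and the most abundant of them in chondrocytes, stood at 1.09 (11133 against 10458 counts), and *Nars*, for asparagine, at 1.04. With total counts both fell below equality, at 0.995 and 0.949.

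**Figure D5:**
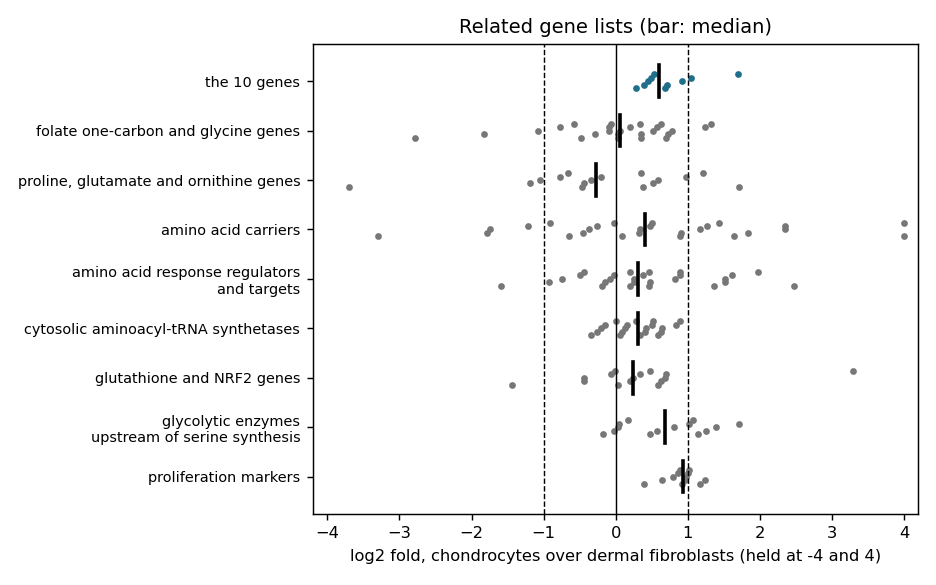
Log2 fold of chondrocytes over dermal fibroblasts for the 10 genes and 8 related lists (points held at -4 and 4), with the list median as a bar and dashed lines at 2-fold. The medians run from -0.28 for proline, glutamate and ornithine genes to 0.94 for proliferation markers, and the 10 genes have a median of 0.61.

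Other folate and glycine genes went both ways. Of 25 genes, 11 had a counting interval wholly above equality and 6 wholly below it, beside 5083 and 5220 of all 14730 genes tested. In this list 2 had a fold over 2 and 3 were over 2-fold lower in chondrocytes, beside 12.0% and 16.2% of all genes tested. The median log2 fold was 0.06, and -0.08 with total counts. *Mthfd1l*, which releases formate from the mitochondrial route downstream of *Mthfd2*, was 2.49-fold higher (2522 against 1039 counts, interval 2.32 to 2.68), and *Slc19a1*, the reduced folate carrier, was 2.37-fold higher (675 against 293). *Aldh1l1*, the cytosolic enzyme that oxidizes formyl-folate, had a fold of 0.145 (98 against 692), while its mitochondrial paralog *Aldh1l2* was among the most abundant and differed little (6651 against 6559, fold 1.04, and 0.948 with total counts). *Mat2a*, which makes the methyl donor from methionine (fold 0.959), and *Dld*, a subunit of the glycine cleavage system (fold 1.03), were the other abundant genes of the list, and both change side of equality with the scale. *Gcat*, which makes glycine in threonine breakdown, had a fold of 0.282 (151 against 549).

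Of 16 tested genes of proline, glutamate and ornithine metabolism, 2 passed 2-fold upward in chondrocytes and 3 downward. The shares over all genes tested were 12.0% and 16.2%. The median log2 fold of the list was -0.28. *Odc1*, the first enzyme of polyamine synthesis, was 3.26-fold higher (6201 against 1953 counts), and *Gpt2*, the mitochondrial alanine transaminase, was 2.30-fold higher (2237 against 997). *Oat*, which links ornithine with the proline precursor, was 1.43-fold higher (5754 against 4139). *Glul*, which makes glutamine, had a fold of 0.483 (658 against 1399, and 0.526 with *Actb* as the scale), *Glud1*, glutamate dehydrogenase, 0.634 (2637 against 4272), and *Asl*, argininosuccinate lyase, 0.437 (200 against 470). *Arg2* and *Ass1* had under 10 counts.

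Carriers of amino acids spread more widely. Of 26 genes, 9 passed 2-fold upward in chondrocytes and 4 downward, beside 12.0% and 16.2% of all genes tested. The median log2 fold was 0.40. *Slc38a3*, a carrier of glutamine, was counted 895 times in chondrocytes and not at all in dermal fibroblasts. Its fold was 306 when 3 counts stand in for the 0, with a lower counting limit of 249-fold. The glutamate carrier *Slc1a1* was 28.0-fold higher with 109 counts against 4 (interval 10.6 to 105). *Slc7a2* and *Slc7a3*, carriers of cationic amino acids, were 5.09-fold and 5.08-fold higher, with 4819 against 973 and 1336 against 270 counts. *Slc1a5*, the neutral amino acid exchanger ASCT2, was 1.87-fold higher (5831 against 3199, and 2.04-fold with *Actb* as the scale), and *Slc38a2*, a carrier of alanine, glutamine and proline, differed little (6027 against 6284, fold 0.985, and 1.07 with *Actb* as the scale). Lower in chondrocytes were *Slc36a1*, a lysosomal carrier of small amino acids such as glycine and proline (403 against 1423, fold 0.291), *Slc16a10*, for aromatic amino acids (117 against 402, fold 0.299), and *Slc38a7* (515 against 1227, fold 0.431). The glycine transporter *Slc6a9* (3727 counts against 1076, 3.56-fold higher) was picked out for mention only once its values had been seen.

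Of 15 genes of glutathione synthesis and the NRF2 response, 1 was over 2-fold higher in chondrocytes and 1 over 2-fold lower. The shares over all genes tested were 12.0% and 16.2%. The median log2 fold of these 15 was 0.24. *Nqo1*, a quinone reductase, was 9.75-fold higher (2279 against 240 counts, interval 8.53 to 11.2), *Hmox1*, heme oxygenase, was 1.60-fold higher, and *Gpx4*, a glutathione peroxidase, was 1.15-fold higher. *Ggt5*, which cleaves extracellular glutathione derivatives, had a fold of 0.368. Glycolysis supplies the carbon of serine. Of 14 tested genes, 6 were over 2-fold higher, beside 12.0% of all genes tested, and none was over 2-fold lower, with a median log2 fold of 0.69. *Slc2a1*, the glucose carrier, was 3.28-fold higher (5674 against 1777), and *Hk2* (2.62-fold), *Pgk1*, which makes the metabolite that *Phgdh* draws on (2.38-fold), and *Pfkl* (2.21-fold) followed. *Gapdh* was 1.48-fold higher, while *Aldoa* and *Pkm* were each at 1.03 (0.934 and 0.940 with total counts). The hexokinase gene *Hk1* was the lowest of the list, at 0.884 (1924 against 2235 counts, interval 0.831 to 0.940), and was singled out with its values known. *Eno1* was listed at 0 in both libraries, whereas *Pkm* had 32757 and 32587 counts. Whether that 0 reflects expression or the assignment of reads was not tested.

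Markers of dividing cells lay in the same direction as the 10 genes. All 12 were higher in chondrocytes, 4 of them over 2-fold, beside 12.0% of all genes tested. That count of 4 ranged from 2 with total counts to 8 with *Actb* as the scale. The median log2 fold was 0.94, and the 12 summed to 1487 scaled CPM against 788. *Mki67* had 4387 and 2465 counts (1.83-fold higher), *Top2a* 5006 and 2276 (2.26-fold), *Cdk1* 1877 and 813 (2.37-fold), *Mcm5* 1867 and 946 (2.03-fold), *Rrm2* 2589 and 1321 (2.01-fold), and *Pcna* 2566 and 2009 (1.31-fold). The part of cell division in the levels of the 10 genes was not tested, and cell type and tissue of origin cannot be told apart.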

How the data were processed

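RNA-Seq of 1 chondrocyte and 1 dermal fibroblast library was analyzed. Per the labels and the study's methods, the stranded libraries of mRNA gave single-end reads of 75 bp, which were base-called with CASAVA 1.8.2 and mapped to mm10 with TopHat2 2.0.13, Bowtie2 2.2.3 and SAMtools 0.1.19. The authors deposited unscaled read counts, whole numbers for each gene symbol. The counting program, annotation and strand setting are not given in the sources used here. The table held 24421 rows, of which 6703 were 0 in both libraries, and 27 rows carried a date in place of a symbol.

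From these counts, TMM-adjusted library sizes (edgeR 4.0.16, R 4.3.3), scaled CPM and folds were computed with Python 3.11.15, scipy 1.17.1 and pandas 2.3.3. TMM was used so that no value of the study's supplements entered. Counts under 3 were set to 3 for folds. Counting intervals at 95% were Clopper-Pearson for a fold, with for each level a Poisson interval and each ratio of ratios a Wald interval on the log scale. No p-value could be had from single libraries, and the study's limit on its false discovery rate could not be applied. Exon lengths were the union of exons in GENCODE vM1, and gene positions and promoters those of RefSeq GRCm38.p6. Calculations were tested on simulated counts. Genes named beside the 10 were the 3 most abundant of each list, those over 2-fold with at least 100 counts (at most 4 per direction) and the partners in gene pairs. Lists of cell type markers are given as sums. Some results chosen by this rule are not reported here. The 10 genes and the lists were chosen with earlier results of these data known. *Emr1*, an older symbol of *Adgre1*, matched no row, and *Krt15* had under 10 counts.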

Additional observations from a re-analysis of the deposited data

How the results depend on the processing

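Results were computed again under alternatives, each altering a single choice: 5 other scalings (total counts, DESeq2 1.42.0 median of ratios, upper quartile, total counts less the 10 top genes of each library, *Actb*), a floor of 10 counts, a pseudocount of 1, other thresholds and other filters. No paired analysis was possible because the libraries were single. All 10 genes were higher in chondrocytes under each of the 5 other scalings, with folds from 1.10 (*Psat1*, total counts) to 3.53 (*Pycr1*, *Actb*). Of 70 folds under the 7 alternatives of scaling, floor and pseudocount, 55 stayed within the counting interval of the reported value, 15 left it (all under total counts or *Actb*) and 0 turned direction. With total counts, the median log2 fold of all genes tested moved by -0.14 and that of the 10 genes to 0.47, with 1 of the 10 over 2-fold (*Pycr1*). With *Actb*, the median over all genes moved by 0.12 and that of the 10 genes to 0.73, with 3 of the 10 over 2-fold (*Psph*, at 2.06, besides the others). Relative to all genes the median of the 10 is the same under each scaling by construction, because a scaling shifts every log2 fold alike. In the 7 related lists other than proliferation, the number of genes past 2-fold in a direction moved by at most 2 under the other scalings.

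With a fold over 1.5, 5 of the 10 were higher in chondrocytes, beside 2981 genes higher and 3612 lower, against 1761 and 2388 at 2-fold. With a fold over 4, these were 0, 713 and 929, and with the whole counting interval beyond 2-fold, 1, 1031 and 1546. Requiring at least 100 counts gave 1035 genes higher and 1568 lower. These settings change the counts by construction. The lower library had from 313 to 5734 counts for the 10 genes. At this depth the counting intervals of *Shmt2* and *Psph* include 2-fold. The spread between replicates is not known for any of them.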
